A study of Mus musculus with 12 samples.

Results

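The TRIM genes encode proteins with a tripartite motif, and they were described here in mouse dendritic cells with and without a working Il2 gene. A gene was taken as a member when a probe set carried exactly 1 annotated symbol made of Trim and a number, with or without a letter. The rule found 58 genes among the 19937 genes on the array with such a probe set, and each of the 58 had 1 probe set.

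A TRIM protein usually joins a RING finger, which can act as a ubiquitin ligase, to B-box domains, a coiled coil and a variable tail. The tail sets the subfamily: a PRY-SPRY tail binds viral capsids or other partners, a bromodomain tail reads chromatin, and NHL or COS domains bind RNA, other proteins or microtubules. Many members are induced by interferon, and several tune the sensors that detect viral RNA or DNA, or the NF-kB pathway downstream of Toll-like receptors. In dendritic cells, curdlan, a beta-glucan, is sensed by the receptor Dectin-1, which signals through Syk and Card9.

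RNA was measured on 12 Affymetrix arrays in 4 groups of 3: IL-2 knockout cells with curdlan for 6 h, untreated IL-2 knockout cells, wild-type cells with curdlan for 6 h, and untreated wild-type cells. Bone marrow was grown with GM-CSF for 7 days, and CD11c-positive cells were then collected with beads. The strain label B6.129P2-Il2tm1Hor/J stands on all 12 arrays, the wild-type arrays included, so the genotype label and the titles served to tell the genotypes apart. The sources used here do not say whether replicates were separate animals or give a curdlan dose. Each p-value and SE of the fit rests on the spread of arrays within their groups. That spread was pooled over all 4 groups and drawn toward that of other genes, and cannot be said to cover the spread among animals.

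Il2 itself read 5.63 to 5.87 on the log2 scale in knockout cells with curdlan and 5.77 to 6.04 in untreated knockout cells, against 6.74 to 7.80 in wild-type cells with curdlan and 5.37 to 5.56 in untreated wild-type cells. Il2 was thus 1.48 lower in knockout than in wild-type cells with curdlan (limma, adjusted p = 0.0114), whereas untreated knockout arrays lay above untreated wild-type arrays (difference 0.41, adjusted p = 0.524). Of the 8 dendritic cell markers, Itgax, H2-Ab1 and Cd74 averaged 12.91 or more in every group, whereas group means ran from 6.78 to 7.70 for Flt3 and from 7.55 to 8.29 for Zbtb46. Of all 8, 3 were higher and 1 lower with curdlan in knockout cells, and 2 were higher and 1 lower in wild-type cells. Those that passed were Zbtb46 and Ccr7 (higher in both genotypes), Flt3 (higher in knockout cells) and Cd209a, which was lower with curdlan in knockout (-1.84) and in wild-type cells (-2.87) and also lower in knockout than in wild-type cells, untreated (-2.45, adjusted p = 0.00588) and with curdlan (-1.42, adjusted p = 0.0396). The macrophage list, with 6 measured genes, averaged 9.32 to 9.57 over the arrays. Of these, Mertk and Fcgr1 were higher with curdlan in both genotypes and 0 were lower. Over all genes 9.29% were higher in knockout and 7.27% in wild-type cells. The T and natural killer cell list averaged 5.27 to 5.41 in untreated knockout cells and 5.18 to 5.25 in untreated wild-type cells, near the arrays' lower quartile of 5.08 to 5.15. Fewer cells of a type and less RNA per cell cannot be told apart in such samples. Array medians lay between 6.59 and 6.64. Of the 58 TRIM genes, 33 lay above the median of every array, 19 lay below the median on every array, and Trim75 alone lay below the lower quartile on every array.

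Of the members whose transcripts were higher with curdlan in at least 1 genotype, 6 lie side by side on chromosome 7. The sequences around the starts of the 5 that held a motif described here are printed, to show where it lies and how far these neighbours match. Each line gives 250 bases before to 50 bases after the start of transcription, 5′ to 3′ on the gene's strand, from RefSeq on GRCm38.p6. Capitals mark GAAA followed after any 2 bases by GAAA, or its reverse complement (TTTC, any 2 bases, TTTC), the core of the interferon-stimulated response element that IRF and STAT factors are known to bind. Trim21, a more distant member of the same chromosome, is printed beside them. The windows are chr7:104507800-104508099 (minus strand) for Trim30d, chr7:104465144-104465443 (minus strand) for Trim30a, chr7:104315446-104315745 (minus strand) for Trim12a, chr7:104353300-104353599 (minus strand) for Trim12c, chr7:104244207-104244506 (plus strand) for Trim34a and chr7:102565433-102565732 (minus strand) for Trim21.
Trim30d: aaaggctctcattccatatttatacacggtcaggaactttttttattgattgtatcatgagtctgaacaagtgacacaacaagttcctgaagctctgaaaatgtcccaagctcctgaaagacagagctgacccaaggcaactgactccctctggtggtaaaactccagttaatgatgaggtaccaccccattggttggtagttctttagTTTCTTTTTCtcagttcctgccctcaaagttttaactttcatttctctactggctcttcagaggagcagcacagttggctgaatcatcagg
Trim30a: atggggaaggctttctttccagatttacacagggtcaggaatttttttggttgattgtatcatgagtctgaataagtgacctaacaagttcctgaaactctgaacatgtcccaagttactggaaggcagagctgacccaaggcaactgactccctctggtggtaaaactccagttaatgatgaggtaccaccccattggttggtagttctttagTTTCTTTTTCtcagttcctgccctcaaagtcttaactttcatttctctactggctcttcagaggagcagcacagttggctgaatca
Trim12a: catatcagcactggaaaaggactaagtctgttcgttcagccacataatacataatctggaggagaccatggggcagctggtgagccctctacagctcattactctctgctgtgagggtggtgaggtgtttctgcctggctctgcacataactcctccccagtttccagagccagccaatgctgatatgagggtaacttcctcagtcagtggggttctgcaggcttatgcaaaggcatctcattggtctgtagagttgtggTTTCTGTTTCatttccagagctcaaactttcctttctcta
Trim12c: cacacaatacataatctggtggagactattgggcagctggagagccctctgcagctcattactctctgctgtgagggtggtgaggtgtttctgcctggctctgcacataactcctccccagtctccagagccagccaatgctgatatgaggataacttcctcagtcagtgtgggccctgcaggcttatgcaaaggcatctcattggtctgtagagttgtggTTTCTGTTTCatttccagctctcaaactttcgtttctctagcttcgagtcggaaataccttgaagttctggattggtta
Trim34a: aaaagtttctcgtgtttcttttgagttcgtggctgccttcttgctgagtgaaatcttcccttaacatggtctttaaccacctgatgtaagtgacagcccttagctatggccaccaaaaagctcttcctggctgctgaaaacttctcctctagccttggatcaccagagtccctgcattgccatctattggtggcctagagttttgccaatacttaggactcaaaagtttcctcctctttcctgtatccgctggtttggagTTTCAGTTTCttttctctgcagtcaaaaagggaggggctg
Trim21: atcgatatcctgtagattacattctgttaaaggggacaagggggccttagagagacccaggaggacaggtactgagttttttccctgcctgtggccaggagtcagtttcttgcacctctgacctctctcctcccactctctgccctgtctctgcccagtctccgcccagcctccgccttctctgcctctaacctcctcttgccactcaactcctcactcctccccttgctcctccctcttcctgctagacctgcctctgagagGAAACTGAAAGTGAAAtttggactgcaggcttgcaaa
The Trim30d and Trim30a windows were identical at 276 of 295 aligned bases (93.6%), and the Trim12c and Trim12a windows at 247 of 260 (95.0%). Between these pairs the windows matched less: Trim30d and Trim12a at 145 of 207 aligned bases (70.0%), and Trim34a and Trim12a at 47 of only 67 that aligned (70.1%). The match lay 41 bases before the start in Trim30d, 36 before in Trim30a and 29 before in Trim12c, against 10 bases after it in Trim12a and Trim34a. Trim30a has a second window in RefSeq, chr7:104446076-104446375 on the minus strand, in which the match began 2 bases after the start. Trim21 held 2 overlapping matches, GAAACTGAAA and GAAAGTGAAA, which began 13 and 19 bases after the start.

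With curdlan a minority of the family passed the threshold, and most of the genes that passed were higher. In IL-2 knockout cells 12 members were higher and 2 lower with curdlan, which is 24.1% of the 58, and 44 did not pass an adjusted p of 0.05 in limma. Over all genes tested, 22.5% passed in knockout cells, 9.29% higher and 13.2% lower, while 20.7% of the TRIM genes were higher and 3.45% lower. In wild-type cells 12 members were higher and 5 lower (29.3%), set beside 19.6% of all genes, of which 7.27% of genes were higher and 12.3% lower. The members' median difference was 0.10 in knockout and 0.07 in wild-type cells, beside 0.04 and 0.02 over all genes. Differences ran from -0.58 to 1.53 in knockout cells and from -0.82 to 1.70 in wild-type cells. The 3 curdlan arrays lay wholly above the 3 untreated arrays for 22 members in knockout cells and 16 in wild-type cells, and wholly below for 11 in each. Among all genes, 40.3% were apart in knockout cells (19.4% above and 20.8% below) and 38.0% in wild-type cells (17.0% above and 21.0% below). Without the pair of knockout arrays numbered 1, 9 members passed in knockout cells in place of 14, and without the wild-type pair numbered 1 or 3, 11 or 10 passed in wild-type cells in place of 17. For these smaller fits the share of all genes that passed is not given here.

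**Figure D1:**
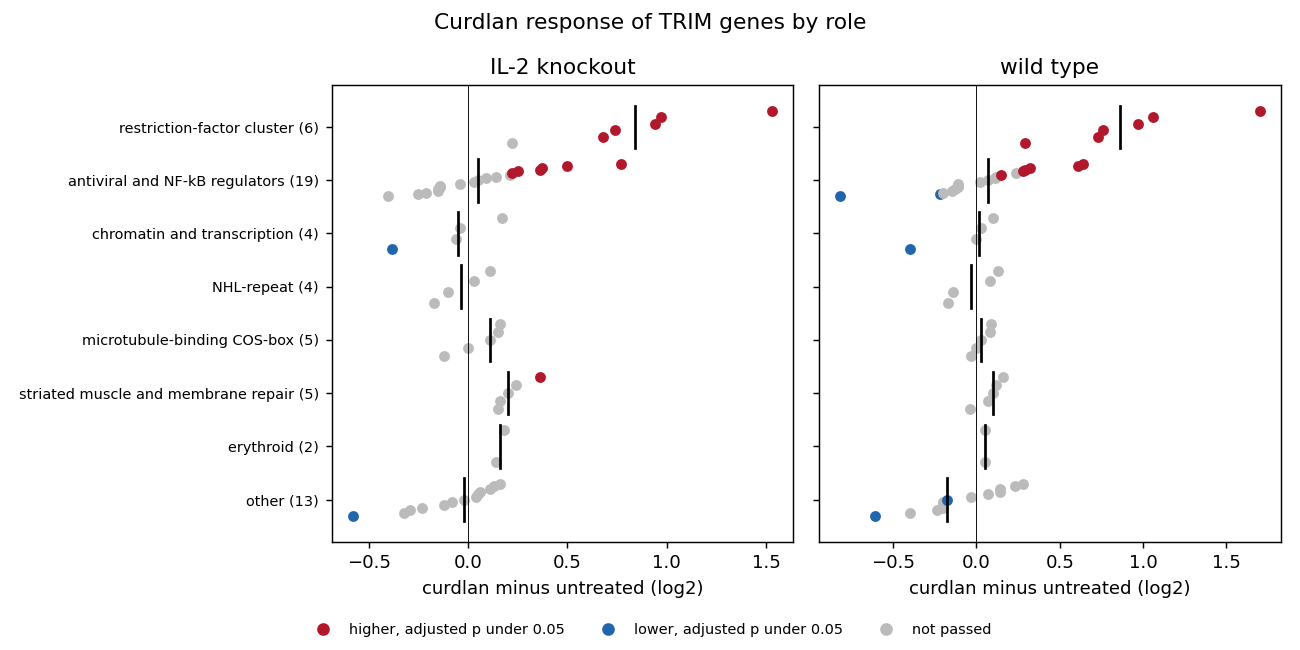
Difference between curdlan-treated and untreated cells (log2, horizontal axis) for the 58 TRIM genes by role group, in IL-2 knockout cells (left) and wild-type cells (right); each point is 1 gene, the bar is the group's median, and the number of measured genes stands in brackets. The restriction-factor cluster has the highest median in both panels, 0.84 in knockout and 0.87 in wild-type cells, and the NHL-repeat genes lie around 0.

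A block on chromosome 7 between 104218795 and 104507853 (GRCm38.p6) holds Trim30d, Trim30a and Trim12a, the 3 members with the largest rises in knockout cells, and in all consists of Trim6, Trim34a, Trim12a, Trim12c, Trim30a and Trim30d. These are relatives of the primate restriction factor TRIM5, which binds incoming retroviral capsids. Of the 6 measured genes of this block, 5 were higher with curdlan in knockout cells (median difference 0.84) and 6 in wild-type cells (median 0.87). Another 4 genes listed for the block had no probe set of their own.

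Trim30d (chromosome 7, 104470014 to 104507853) had the largest rise of the family. It read 11.66, 11.82 and 11.43 in knockout cells with curdlan and 10.02, 10.28 and 10.02 in untreated knockout cells. In wild-type cells it read 11.69, 11.56 and 11.66 with curdlan and 9.81, 10.09 and 9.90 untreated. No curdlan array came within 1 log2 unit of an untreated one, and the genotypes overlapped in both conditions. The rise was 1.53 ± 0.11 (SE of the fit, 3 arrays a group) or 2.89-fold in knockout cells (limma, adjusted p = 9.69e-06). In wild-type cells it was 1.70 ± 0.11 or 3.26-fold (adjusted p = 2.39e-06). Taken by replicate number, the difference was 1.65, 1.54 and 1.40 in knockout cells and 1.88, 1.47 and 1.77 in wild-type cells.

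Trim30a (104409025 to 104465193), which in the mouse dampens Toll-like receptor signalling by promoting loss of TAB2 and TAB3, had the next largest rise in both genotypes. It read 12.67, 12.64 and 12.50 in knockout cells with curdlan and 11.59, 11.73 and 11.58 in untreated knockout cells. In wild-type cells it read 12.58, 12.59 and 12.68 with curdlan and 11.49, 11.60 and 11.58 untreated. The arrays with curdlan sat close together in both genotypes, well above the untreated ones. The rise was 0.97 ± 0.07 (SE) or 1.96-fold in knockout cells (adjusted p = 6.63e-06) and 1.06 ± 0.07 or 2.09-fold in wild-type cells (adjusted p = 1.82e-06).

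Trim12a and Trim12c are the rodent genes most like TRIM5. Trim12a (104299893 to 104315558) read 9.70, 9.91 and 9.40 in knockout cells with curdlan against 8.66, 8.86 and 8.68 untreated, and 9.52, 9.69 and 9.82 in wild-type cells with curdlan against 8.78, 9.01 and 8.95 untreated. Its rise was 0.94 ± 0.12 (SE) in knockout cells (adjusted p = 0.000547) and 0.76 ± 0.12 in wild-type cells (adjusted p = 0.00162). Trim12c (104338754 to 104353358) read 8.03, 8.27 and 7.85 in knockout cells with curdlan against 7.56, 7.35 and 7.18 untreated, and 8.11, 8.18 and 8.51 in wild-type cells with curdlan against 7.15, 7.48 and 7.25 untreated. The groups with and without curdlan did not overlap for either gene in either genotype. Trim12c rose by 0.68 ± 0.14 in knockout cells (adjusted p = 0.00667) and 0.97 ± 0.14 in wild-type cells (adjusted p = 0.000822). Its adjusted p in knockout cells was 0.0549 without the pair of arrays numbered 2. Trim12a and Trim12c, and likewise Trim30a and Trim30d, are neighbours with much alike promoter windows, and another probe set on the array is annotated to both Trim12a and Trim12c. Whether the probes bind both genes of a pair was not tested, and their shares of the signal are uncertain.

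Trim34a and Trim6 complete the block. Trim34a (104244448 to 104262244) read 8.36, 8.19 and 8.14 in knockout cells with curdlan against 7.47, 7.80 and 7.19 untreated, and 8.17, 8.23 and 8.39 in wild-type cells with curdlan against 7.40, 7.66 and 7.53 untreated. It rose by 0.74 ± 0.13 (SE) in knockout cells (adjusted p = 0.00302, and 0.0531 without the pair numbered 1) and by 0.73 ± 0.13 in wild-type cells (adjusted p = 0.00285). Trim6 (104218795 to 104235152), whose human counterpart makes free ubiquitin chains for the antiviral kinase IKK-epsilon, moved least. It read 7.29, 7.24 and 7.20 in knockout cells with curdlan against 7.13, 6.86 and 7.10 untreated, and 7.20, 7.02 and 7.17 in wild-type cells with curdlan against 6.99, 6.79 and 6.73 untreated. The difference was 0.22 ± 0.09 in knockout cells (adjusted p = 0.0877, or 0.047 with the replicate number as a block) and 0.29 ± 0.09 in wild-type cells (adjusted p = 0.0343). The wild-type call for Trim6 was lost with only the arrays compared in the fit (adjusted p = 0.0512). It was also lost without wild-type curdlan array 1 (0.114) or 3 (0.0872), untreated array 2 (0.104) or 3 (0.126), and without the wild-type pair numbered 1 (0.059), 2 (0.0948) or 3 (0.217).

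**Figure D2:**
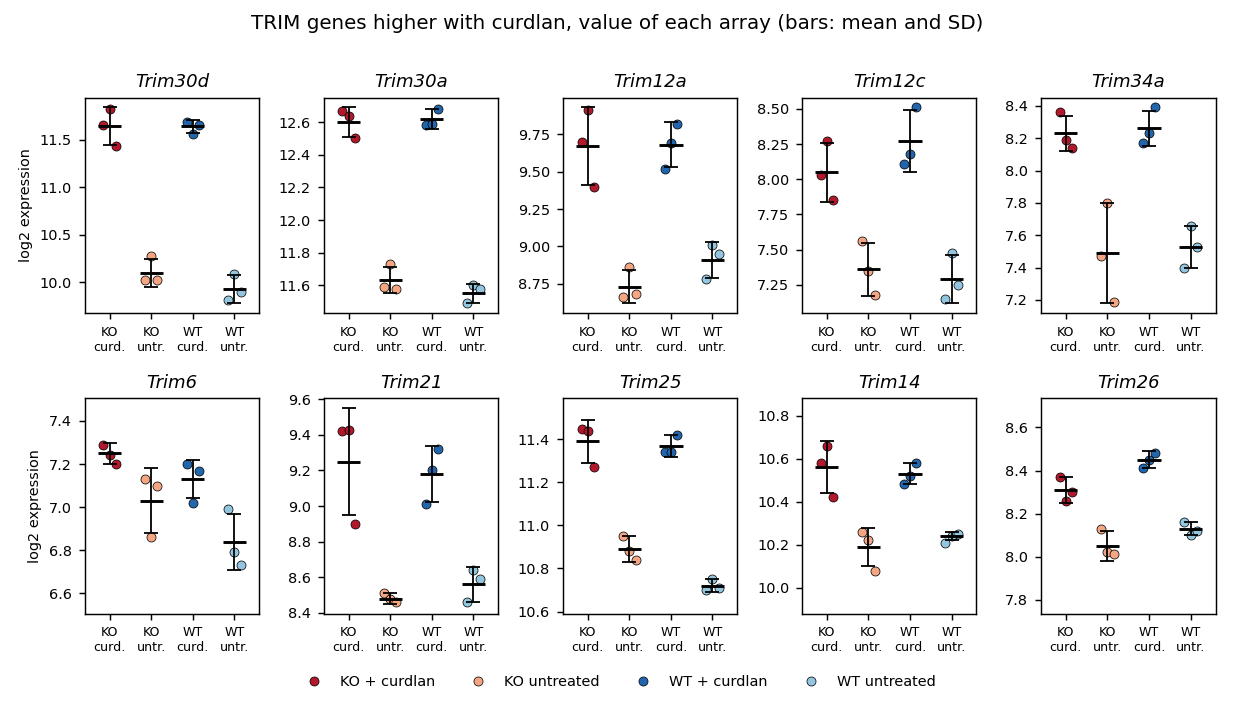
Value on each array (log2, vertical axis) of the 6 chromosome 7 block genes and of Trim21, Trim25, Trim14 and Trim26, in IL-2 knockout cells with curdlan, untreated knockout cells, wild-type cells with curdlan and untreated wild-type cells; points are the 3 arrays of a group and bars the mean and SD. Trim30d sits between 11.43 and 11.82 with curdlan in both genotypes and between 9.81 and 10.28 without it, whereas the groups of Trim6 lie close together.

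Among the 19 measured regulators of antiviral sensing and NF-kB, Trim14, Trim21, Trim25, Trim26 and Trim56 were higher with curdlan in both genotypes. Trim62 passed in knockout and not in wild-type cells, and Trim35 in wild-type and not in knockout cells. Trim27 and Trim59 were lower in wild-type cells. The group's median difference was 0.05 in knockout and 0.07 in wild-type cells, close to the medians of all genes.

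Trim21 (chromosome 7, 102557920 to 102565482) is a cytosolic Fc receptor that targets antibody-coated viruses for degradation. It read 9.42, 9.43 and 8.90 in knockout cells with curdlan and 8.51, 8.48 and 8.46 in untreated knockout cells. In wild-type cells it read 9.01, 9.20 and 9.32 with curdlan and 8.46, 8.64 and 8.59 untreated. Knockout curdlan array 3 stood below the other two but above every untreated array. The rise was 0.77 ± 0.13 (SE) in knockout cells (adjusted p = 0.00224) and 0.61 ± 0.13 in wild-type cells (adjusted p = 0.00627, and 0.0572 without the wild-type pair numbered 3).

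Trim25 (chromosome 11, 88999403 to 89020294) is the ubiquitin ligase that helps to activate the viral RNA sensor RIG-I. It read 11.45, 11.44 and 11.27 in knockout cells with curdlan against 10.95, 10.88 and 10.84 untreated, and 11.34, 11.34 and 11.42 in wild-type cells with curdlan against 10.70, 10.75 and 10.71 untreated. The groups were tight and apart in each genotype. Trim25 rose by 0.50 ± 0.06 (SE) or 1.42-fold in knockout cells (adjusted p = 0.000284) and by 0.64 ± 0.06 or 1.56-fold in wild-type cells (adjusted p = 3.87e-05).

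Trim14, which lacks a RING finger and works as an adaptor beside the mitochondrial protein Mavs, read 10.58, 10.66 and 10.42 in knockout cells with curdlan against 10.26, 10.22 and 10.08 untreated, and 10.48, 10.52 and 10.58 in wild-type cells with curdlan against 10.21, 10.24 and 10.25 untreated. Its rise was 0.37 in knockout cells (adjusted p = 0.00417) and 0.29 in wild-type cells (adjusted p = 0.0118). The wild-type call of Trim14 was lost without the pair of wild-type arrays numbered 1 (0.0653), 2 (0.0796) or 3 (0.0844). Trim26, known to limit interferon production through loss of IRF3, read 8.37, 8.26 and 8.30 in knockout cells with curdlan against 8.13, 8.02 and 8.01 untreated, and 8.41, 8.45 and 8.48 in wild-type cells with curdlan against 8.16, 8.10 and 8.12 untreated. It rose by 0.25 in knockout cells (adjusted p = 0.00732) and 0.32 in wild-type cells (adjusted p = 0.00207), both small steps that kept the groups apart.

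Trim56, linked to STING and Toll-like receptor 3 signalling, read 9.53, 9.44 and 9.26 in knockout cells with curdlan against 9.01, 9.06 and 9.07 untreated, and 9.29, 9.25 and 9.42 in wild-type cells with curdlan against 8.92, 9.09 and 9.11 untreated. It rose by 0.36 in knockout cells (adjusted p = 0.00873) and 0.28 in wild-type cells (adjusted p = 0.029). The knockout call of Trim56 was lost without the pair numbered 1 (0.111) or 2 (0.0553). Its wild-type call was lost without curdlan array 1 (0.0567) or 3 (0.096), untreated array 1 (0.113) or 2 (0.0522), or the pair numbered 1 (0.161), 2 (0.0698) or 3 (0.112).

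Trim62, which in the mouse ubiquitinates Card9 downstream of Dectin-1, read 7.36, 7.41 and 7.51 in knockout cells with curdlan against 7.05, 7.32 and 7.24 untreated, and 7.40, 7.38 and 7.45 in wild-type cells with curdlan against 7.31, 7.22 and 7.36 untreated. Its difference was 0.22 in knockout cells (adjusted p = 0.048) and 0.11 in wild-type cells (adjusted p = 0.315). The difference between those responses was 0.11 (95% interval -0.12 to 0.33) and did not pass. The knockout call of Trim62 was lost in 19 of 25 alternatives: on leaving out any single array except untreated knockout array 2, on leaving out any same-numbered pair, with only the arrays compared and with an intensity trend. Across the 25 the adjusted p ran from 0.0171 to 0.181, and the knockout difference was 0.14 without untreated knockout array 1.

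Trim35, known to promote loss of IRF7, read 10.18, 10.25 and 10.16 in knockout cells with curdlan against 10.07, 10.05 and 10.05 untreated, and 10.13, 10.20 and 10.24 in wild-type cells with curdlan against 10.02, 10.03 and 10.06 untreated. Its difference was 0.14 in knockout cells (adjusted p = 0.0597) and 0.15 in wild-type cells (adjusted p = 0.0498), nearly the same size on either side of the threshold. In knockout cells Trim35 passed with a random block for the same-numbered pairs (0.0271), with a filter on dim genes (0.0344), with a second quantile normalisation (0.0225) and without wild-type curdlan array 1 (0.0457). The wild-type call of Trim35 was lost in 18 of 25 alternatives, with an adjusted p from 0.021 to 0.219. These were the fit with the replicate block (0.0599), the fit of only the arrays compared (0.101), every left-out pair, and every left-out array except knockout curdlan array 2 and wild-type curdlan array 1.

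The 10 genes that rose in both genotypes were Trim12a, Trim12c, Trim14, Trim21, Trim25, Trim26, Trim30a, Trim30d, Trim34a and Trim56. They are 83.3% of the 12 members higher in knockout cells and 83.3% of the 12 higher in wild-type cells. The comparisons share no array, but each gene's spread came from 1 fit of all 12 arrays, so the calls are not independent. The same overlap over all genes is not given here. Their median rise was 0.71 in knockout cells and 0.68 in wild-type cells. Knockout curdlan array 3 was the lowest of its group for 9 of the 10, all but Trim26. Untreated wild-type array 1 was likewise the lowest of its group for 9, again all but Trim26. Untreated knockout array 3 and wild-type curdlan array 1 were each the lowest of their groups for 7. The mean of the 10 was 9.98, 10.01 and 9.75 on the knockout curdlan arrays and 9.22, 9.27 and 9.11 on the untreated knockout arrays, against 9.86, 9.90 and 10.03 on the wild-type curdlan arrays and 9.11, 9.27 and 9.20 on the untreated wild-type arrays.

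**Figure D3:**
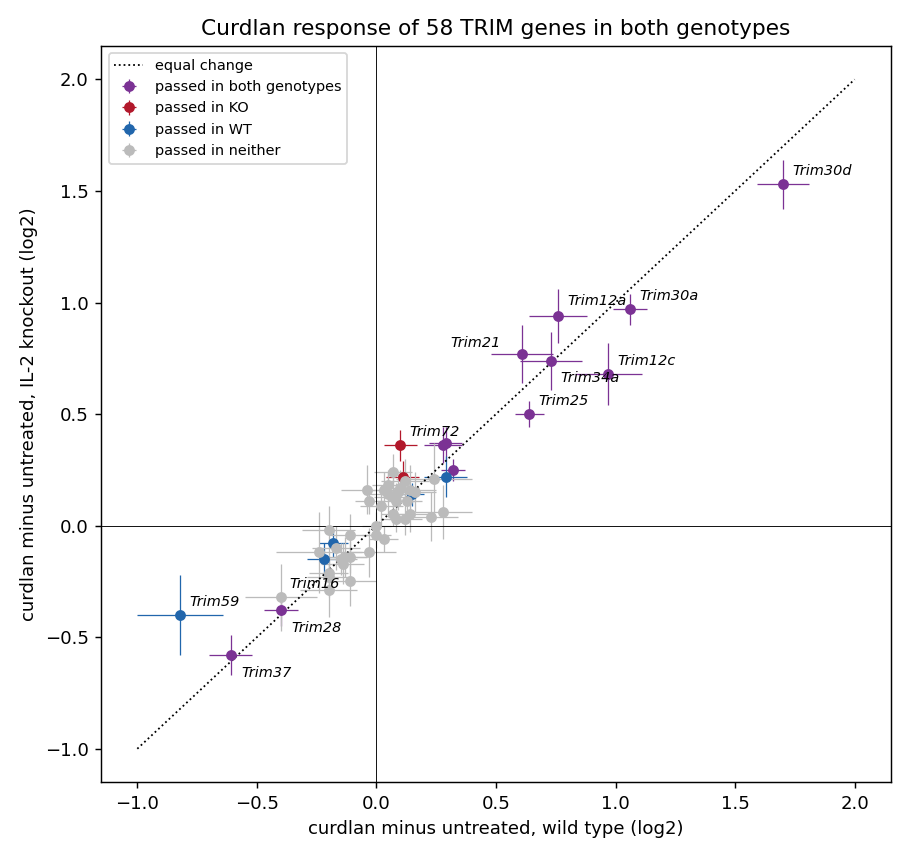
Curdlan difference (log2) of each of the 58 TRIM genes in IL-2 knockout cells (vertical axis) against that in wild-type cells (horizontal axis), with the SE of the fit as bars and colours for the genotypes in which a gene passed. Of the 58 genes, 55 have the same sign in both genotypes, and Trim30d lies farthest from 0 with 1.53 in knockout and 1.70 in wild-type cells.

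Genes of the pathways that these TRIM proteins act on were higher in part. Of 26 measured genes of a listed set for antiviral sensing and interferon signalling, 15 were higher and 1 lower in each genotype, with a median difference of 0.30 in knockout and 0.40 in wild-type cells. Over all genes 9.29% were higher and 13.2% lower in knockout cells, and 7.27% higher and 12.3% lower in wild-type cells. Ddx58, which encodes RIG-I, the partner of Trim25, rose by 1.55 in knockout and 1.72 in wild-type cells. Ifih1, the long double-stranded RNA sensor, rose by 1.96 in knockout and 2.16 in wild-type cells, and Irf7, the interferon-inducing factor that Trim35 acts on, by 2.72 in knockout and 3.35 in wild-type cells. Mavs, the adaptor beside Trim14, was the lower one and fell by 0.30 in knockout and by 0.43 in wild-type cells. Other partners did not pass: the differences were 0.00 in both genotypes for Tab2 and 0.13 in knockout and 0.10 in wild-type cells for Tab3, on which Trim30a acts. They were -0.17 in knockout and -0.09 in wild-type cells for Irf3, on which Trim26 acts, and 0.00 in knockout and -0.07 in wild-type cells for Sting1, linked to Trim56. Ifnb1, the interferon gene of the list, did not pass either, with differences of 0.25 in knockout and 0.02 in wild-type cells. Its group means ran from 4.68 to 4.93, below the arrays' lower quartile of 5.08 to 5.15. The list's mean on knockout curdlan arrays ran from 10.33 to 10.53 with array 3 lowest, as for the TRIM genes. Pml, a TRIM protein by structure (Trim19 in the older naming) that builds nuclear bodies, rose by 0.96 in knockout cells (adjusted p = 8.84e-05) and by 1.12 in wild-type cells (adjusted p = 2.12e-05), while Mefv, Mid1 and Mid2 did not pass.

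Of the 5 plasmacytoid cell markers, 3 were higher with curdlan in knockout cells (median difference 0.30) and 2 in wild-type cells (median 0.12). The shares of all genes that were higher were 9.29% in knockout and 7.27% in wild-type cells. The mean of the 5 ran from 7.61 to 7.81 in knockout cells with curdlan and from 7.24 to 7.37 in untreated knockout cells, and from 7.61 to 7.75 in wild-type cells with curdlan against 7.20 to 7.22 in untreated ones. Bst2, itself an interferon-induced gene, and Tcf4 were higher in each genotype, and Ccr9 in knockout cells. Siglech and Ly6d passed in neither, with differences of 0.04 and 0.03 in knockout and 0.10 and 0.06 in wild-type cells. The part of these markers in the TRIM results was not tested.

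The response-element letters were found in the promoter windows of 8 of the 46 members that had a window (17.4%), against 1079 of 27025 genes (3.99%). Of the 12 members higher in at least 1 genotype with a window, 7 held them (58.3%): Trim12a, Trim12c, Trim21, Trim26, Trim30a, Trim30d and Trim34a. The windows of Trim30d and Trim30a (93.6% identical) share 1 word, and so do those of Trim12c and Trim12a (95.0%). These counts therefore do not rest on independent sequences. None of the 5 members lower with curdlan held them, and of the 29 that passed in neither genotype only Trim2 did (3.45%). The windows of Trim25, Trim56, Trim6, Trim62 and Trim72 had no such letters, and Trim14 and Trim35 had no window. The letters GGGA, any 4 bases and CC, or the reverse complement (GG, any 4 bases, TCCC), a loose form of the NF-kB site, were in 9 of the 46 (19.6%), against 22.9% of all genes, and in 1 of the 12 (8.33%). Both words were searched on both strands, and a match of letters is a description, not a binding site.

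Fewer TRIM genes were lower with curdlan, and Trim37 and Trim28 were so in both genotypes. These 2 are all of the members lower in knockout cells (100.0%) and 40.0% of the 5 lower in wild-type cells. Trim37, a ubiquitin ligase of peroxisomes and centrioles, lies on chromosome 11 (87126790 to 87250874). It read 8.28, 8.04 and 8.30 in knockout cells with curdlan against 8.87, 8.70 and 8.79 untreated, and 8.21, 8.43 and 8.29 in wild-type cells with curdlan against 8.95, 8.99 and 8.82 untreated. Trim37 fell by 0.58 ± 0.09 (SE) in knockout cells (adjusted p = 0.00105) and by 0.61 ± 0.09 in wild-type cells (adjusted p = 0.000672). It fell within each same-numbered pair, with differences of -0.59, -0.67 and -0.50 in knockout and -0.73, -0.56 and -0.53 in wild-type cells. The gene Ppm1e overlaps its end, and the sources used here do not give the strand of the probes. The same limit holds for members that rose: noncoding genes or pseudogenes overlap Trim6, Trim12a, Trim12c, Trim14, Trim25, Trim26, Trim30a, Trim30d and Trim35.

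Trim28, also called Kap1, is the corepressor that KRAB zinc finger proteins recruit to silence retroelements. It lies on chromosome 7 (13024152 to 13031032), far from the block of risers, and its start overlaps Gm31649. It read 9.53, 9.45 and 9.65 in knockout cells with curdlan against 9.99, 9.84 and 9.93 untreated, and 9.51, 9.71 and 9.62 in wild-type cells with curdlan against 10.04, 10.04 and 9.96 untreated. Trim28 fell by 0.38 in knockout cells (adjusted p = 0.00457, and 0.0679 without the knockout pair numbered 1) and by 0.40 in wild-type cells (adjusted p = 0.00284). The other 3 chromatin members, Trim24, Trim33 and Trim66, did not pass in either genotype.

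Trim59, a membrane-anchored member whose human form dampens NF-kB and IRF signalling, showed the largest fall in wild-type cells. It read 5.89, 5.75 and 5.97 in knockout cells with curdlan against 6.21, 6.09 and 6.51 untreated, and 6.09, 6.64 and 6.43 in wild-type cells with curdlan against 6.98, 7.63 and 7.01 untreated. Knockout cells were low in both conditions, and every wild-type untreated array lay above all others. Trim59 fell by 0.82 ± 0.18 (SE) in wild-type cells (adjusted p = 0.00841). In knockout cells the difference was -0.40 ± 0.18 (adjusted p = 0.128), and the fit with the replicate number as a block gave an adjusted p of 0.00829. The knockout difference also passed without the wild-type pair numbered 2 (0.0493). The test of the difference between the genotypes' responses gave 0.42 ± 0.26 (95% interval -0.14 to 0.98, adjusted p = 1.0).

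Trim27 and Trim41 had small differences in wild-type cells. Trim27, a repressor of IKK kinases and transcription, read 8.90, 8.78 and 8.84 in knockout cells with curdlan against 9.07, 8.94 and 8.97 untreated, and 8.79, 9.01 and 8.83 in wild-type cells with curdlan against 9.13, 9.05 and 9.11 untreated. Its difference was -0.15 in knockout cells (adjusted p = 0.11) and -0.22 in wild-type cells (adjusted p = 0.0378). The wild-type call of Trim27 was lost in 11 of 25 alternatives, up to an adjusted p of 0.277. These were a second quantile normalisation (0.103), only the arrays compared (0.0777), leaving out untreated knockout array 3 (0.051), wild-type curdlan array 1 (0.136) or 3 (0.102), untreated wild-type array 1 (0.112), 2 (0.0601) or 3 (0.102), and the pairs knockout 3 (0.0618), wild-type 1 (0.277) and wild-type 3 (0.199). The second normalisation made the Trim27 difference -0.14.

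Trim41, a ubiquitin ligase that targets the influenza nucleoprotein, read 9.18, 9.02 and 9.01 in knockout cells with curdlan against 9.12, 9.20 and 9.12 untreated, and 9.03, 9.12 and 9.03 in wild-type cells with curdlan against 9.26, 9.26 and 9.21 untreated. Its difference was -0.08 in knockout cells (adjusted p = 0.338) and -0.18 in wild-type cells (adjusted p = 0.0459). The wild-type call of Trim41 was lost in 18 of 25 alternatives, with an adjusted p from 0.0216 to 0.248. It was lost with the replicate block (0.0548), with only the arrays compared, with a second quantile normalisation, with an intensity trend, and on leaving out any pair but knockout 1 or any array but knockout curdlan 1 or 3 or untreated knockout 2.

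**Figure D4:**
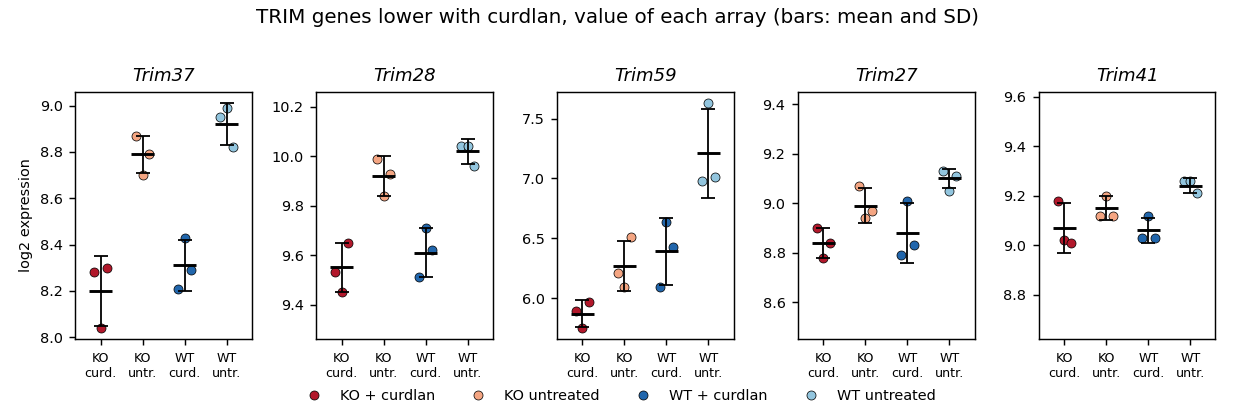
Value on each array (log2, vertical axis) of Trim37, Trim28, Trim59, Trim27 and Trim41, in IL-2 knockout cells with curdlan, untreated knockout cells, wild-type cells with curdlan and untreated wild-type cells; points are the 3 arrays of a group and bars the mean and SD. Trim37 and Trim28 lie lower with curdlan in both genotypes, and the untreated wild-type arrays of Trim59, at 6.98 to 7.63, lie above the other 9.

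Members of the NHL-repeat, COS-box, muscle and erythroid groups mostly did not pass. None of the 4 NHL-repeat genes (Trim2, Trim3, Trim32 and Trim71) or the 5 COS-box genes (Trim9, Trim36, Trim42, Trim46 and Trim67) passed with curdlan, and their differences ran from -0.17 to 0.16 in knockout cells and from -0.17 to 0.13 in wild-type cells. The erythroid genes Trim10 and Trim58 did not pass either, with medians of 0.16 in knockout and 0.05 in wild-type cells.

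Of the 5 genes listed under muscle and membrane repair, Trim72, which patches torn muscle membranes, was higher in knockout cells. It read 6.13, 6.11 and 6.01 in knockout cells with curdlan against 5.68, 5.79 and 5.69 untreated, and 6.01, 5.83 and 5.81 in wild-type cells with curdlan against 5.86, 5.82 and 5.68 untreated. All of these values lay below the array medians. Its difference was 0.36 ± 0.07 (SE) in knockout cells (adjusted p = 0.00507, and 0.0781 without the pair numbered 1) and 0.10 ± 0.07 in wild-type cells (adjusted p = 0.379). The difference between those responses was 0.27 (95% interval 0.05 to 0.49), with an unadjusted p of 0.0216 and an adjusted p of 1.0.

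Of the 58 members, 39 passed in neither genotype, and their differences ran from -0.32 to 0.24 in knockout cells and from -0.40 to 0.28 in wild-type cells. Trim16, a member without a RING finger, was the lowest of them in both, at -0.32 in knockout (adjusted p = 0.133) and -0.40 in wild-type cells (adjusted p = 0.0764). With the replicate number as a block its adjusted p was 0.012 in knockout and 0.00395 in wild-type cells. Trim47 also passed under the block, at 0.00504 for -0.29 in knockout and 0.0237 for -0.20 in wild-type cells. Under the same block Trim23 (-0.25, adjusted p = 0.0423) and Trim44 (-0.23, adjusted p = 0.0287) passed in knockout cells and Trim29 (-0.24, adjusted p = 0.0219) in wild-type cells. Some of these also passed when arrays were left out. In wild-type cells, Trim16 passed without knockout curdlan array 3 (0.0273) or the knockout pair numbered 3 (0.0262), and Trim29 without that pair (0.0276). In knockout cells Trim44 passed without knockout curdlan array 3 (0.0218), Trim23 without untreated knockout array 2 (0.0331) and Trim47 without the wild-type pair numbered 1 (0.00902).

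By position, chromosome 7 holds 12 of the 58 members, and 8 of these were higher and 1 lower with curdlan in at least 1 genotype. In order along the chromosome they are Trim28, Trim21, Trim68, Trim6, Trim34a, Trim12a, Trim12c, Trim30a, Trim30d, Trim3, Trim66 and Trim72. Counted in the same way, 14 of all 58 members were higher and 5 lower, and the share of all genes is not given here. Of the 8 higher on chromosome 7, Trim6 passed in wild-type cells only and Trim72 in knockout cells only. Trim68, between Trim21 and the block, and Trim3 and Trim66, beyond it, did not pass. Chromosome 11 holds 10 members, of which 1 was higher (Trim25) and 2 lower (Trim37 and Trim41). The 6 on chromosome 17 (Trim39, Trim26, Trim15, Trim10, Trim40 and Trim31) included only Trim26 among those that passed.

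Between the genotypes fewer TRIM genes passed. In untreated cells 1 member, Trim59, was lower in knockout than in wild-type cells (1.72% of the 58), beside 1.42% of all genes, 0.231% higher and 1.19% lower. With curdlan 0 members passed in limma, beside 0.622% of all genes, 0.105% higher and 0.517% lower, and the members' smallest adjusted p was 0.257. An unadjusted p under 0.05 was found for 6 of the 58 members and for 2306 of the 19937 genes. Arrays of the genotypes did not overlap for 5 members higher and 7 lower in untreated knockout cells, and for 2 higher and 4 lower in treated knockout cells. Among all genes, 15.4% were apart in untreated cells (7.55% higher and 7.88% lower) and 14.6% in treated cells (7.71% higher and 6.84% lower).

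Trim59 (chromosome 3, 69035292 to 69044742) read 6.21, 6.09 and 6.51 in untreated knockout cells and 6.98, 7.63 and 7.01 in untreated wild-type cells. It was 1.92-fold lower in the knockout, a difference of -0.94 ± 0.18 (SE, 95% interval -1.34 to -0.54, adjusted p = 0.0306). Wild-type array 2 was the highest of all, and without it the difference was -0.73 (adjusted p = 0.103). This genotype call of Trim59 was lost in 11 of 25 alternatives, with adjusted p-values from 0.0157 to 0.164. Besides that array, these were leaving out untreated knockout array 1 (0.106) or 2 (0.118), knockout curdlan array 1 (0.0507), untreated wild-type array 3 (0.0513), and the pairs knockout 1 (0.164), knockout 2 (0.146), wild-type 2 (0.054) and wild-type 3 (0.084). The fit of only the arrays compared gave 0.0954 and a second quantile normalisation 0.0636.

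With curdlan Trim59 read 5.89, 5.75 and 5.97 in knockout and 6.09, 6.64 and 6.43 in wild-type cells, again without overlap, a difference of -0.52 ± 0.18 (95% interval -0.91 to -0.12, adjusted p = 0.268). Trim59 lies 31.9 megabases from Il2 on the same chromosome (Il2 spans 37120713 to 37125954). The other 5 members on chromosome 3 differed by -0.10 to 0.05 between untreated knockout and wild-type cells, and the smallest adjusted p was 0.822. The mast cell and basophil list averaged 5.75 to 5.92 in untreated knockout and 6.11 to 6.21 in untreated wild-type cells, with 0 of its 5 measured genes past the threshold and 3 below the lower quartile on every array. The dendritic cell list averaged 10.42 to 10.54 in untreated knockout and 10.90 to 11.02 in untreated wild-type cells, and of its 8 genes only Cd209a passed (-2.45, adjusted p = 0.00588). The part of either list in the Trim59 result was not tested.

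Trim7, a ligase that binds glycogenin, came next. It read 6.42, 6.69 and 6.67 in untreated knockout cells and 6.76, 7.11 and 7.12 in untreated wild-type cells, which did not overlap. The difference was -0.40 ± 0.11 (SE, adjusted p = 0.132). With the replicate number as a block the adjusted p of Trim7 was 0.0105, without untreated wild-type array 1 it was 0.0279, and without the wild-type pair numbered 1 it was 0.0192. Without that pair Trim47 was also past the threshold, 0.31 higher in untreated knockout cells (adjusted p = 0.0378). The other 57 members besides Trim59 differed by -0.40 to 0.21 in untreated cells and by -0.22 to 0.20 with curdlan.

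With curdlan the smallest p-values between genotypes belonged to Trim24, a bromodomain cofactor of nuclear receptors, and Trim68. Trim24 read 8.16, 8.18 and 8.18 in knockout and 8.40, 8.38 and 8.24 in wild-type cells, a difference of -0.16 (adjusted p = 0.257). Trim68 read 7.50, 7.46 and 7.59 in knockout and 7.70, 7.82 and 7.63 in wild-type cells, a difference of -0.20 (adjusted p = 0.263). Both sets of arrays were apart, by small steps.

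**Figure D5:**
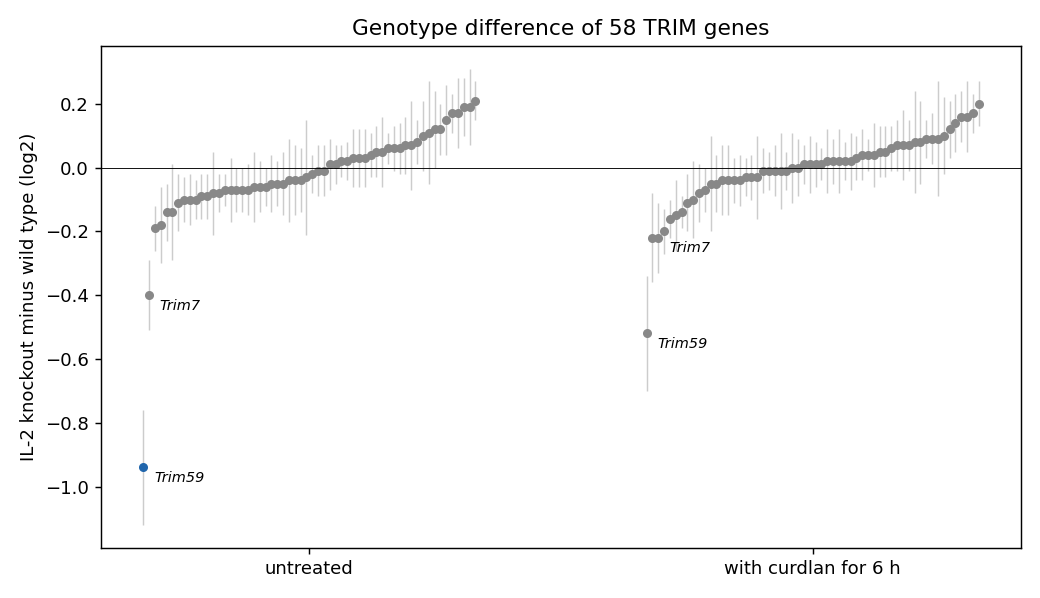
Difference between IL-2 knockout and wild-type cells (log2, vertical axis) of the 58 TRIM genes, sorted within untreated cells (left) and within curdlan-treated cells (right); bars are the SE of the fit and blue marks an adjusted p under 0.05. Trim59 lies lowest in both, at -0.94 untreated and -0.52 with curdlan.

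The curdlan response itself was compared between genotypes by the interaction term. No member passed in limma, beside 0.0% of all genes, and 1 member, Trim72, had an unadjusted p under 0.05, as did 552 of the 19937 genes. The next smallest p was that of Trim75 (0.105), dim on all 12 arrays. For the 10 genes that rose in both genotypes the difference in response, knockout minus wild type, ran from -0.29 to 0.18. The 95% interval held 0 for 57 of the 58 members, and the median distance from an estimate to its bounds was 0.26. Between genotypes these 10 genes differed by -0.18 to 0.17 in untreated cells and by -0.22 to 0.09 with curdlan.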

How the data were processed

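The deposited values are log2 expression, 1 per probe set and array, which the authors made with RMA, per the submitters' processing notes. Neither its version nor which arrays were normalised with each other is stated in the sources. Of 34760 probe sets, 21640 carried exactly 1 symbol in the platform annotation, and the brightest per gene gave 19937 genes. No further normalisation or filter was applied.

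A mean per group was fitted to 12 arrays with limma 3.58.1 in R 4.3.3 (8 residual degrees of freedom), and two-sided moderated tests were adjusted by Benjamini-Hochberg over 19937 genes in each of the contrasts. "Passed" means an adjusted p under 0.05. For each contrast up to 8 largest rises and 8 largest falls past that threshold were named, every gene of the chromosome 7 block, and, where none passed, the 2 smallest p-values. The members and lists were chosen with earlier results of these data known.

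Array number limits the precision. Arrays correlated at 0.981 to 0.997 and 0 pairs were identical. Same-numbered arrays deviated together for curdlan (correlations 0.486 to 0.604 in knockout and 0.368 to 0.450 in wild-type cells) and between untreated genotypes (0.105 to 0.254). With curdlan the genotypes' correlations were -0.134 to 0.328, against -0.298 to 0.206 for arrays of unlike number. The group-mean fit did not use the numbers as pairs, so its p-values and counts ignore this pairing. A block was run only as an alternative, for every contrast. It was the number within each genotype for the curdlan contrasts and the interaction, and the number alone for a fixed block between genotypes. The fit was tested on simulated data. Alternatives were a replicate block fixed or random, only the arrays compared, a second quantile normalisation, an intensity trend, a filter on dim genes, the mean of a gene's probe sets, and leaving out each array or same-numbered pair. Promoter windows are RefSeq GRCm38.p6. Probe sets with several symbols were left out of the tests.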

Additional observations from a re-analysis of the deposited data

Results flagged for a closer look

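Probe sets that carry several symbols, at least 1 of them a TRIM symbol, took no part in the tests, and 3 of these, with the pseudogene Trim30e-ps1, were flagged because every curdlan array lay above every untreated array in both genotypes. The probe set shared by Gm38525 and Trim30b read 8.29, 8.60 and 7.26 in knockout cells with curdlan against 6.84, 6.49 and 5.94 untreated, and 8.18, 8.12 and 7.92 in wild-type cells with curdlan against 6.88, 7.14 and 6.48 untreated. Its difference was 1.63 in knockout and 1.25 in wild-type cells. The probe set shared by Trim5, Trim12c and Trim12a differed by 0.74 in knockout and 0.58 in wild-type cells, and the one shared by Trim5 and Trim12c by 0.79 in knockout and 0.60 in wild-type cells. Trim30e-ps1 read 5.73 to 5.93 in knockout cells with curdlan against 5.20 to 5.46 untreated, and 5.72 to 5.87 in wild-type cells with curdlan against 5.32 to 5.37 untreated, differences of 0.46 in knockout and 0.45 in wild-type cells. None of these was tested, and a change in a shared probe set cannot be assigned to 1 gene.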

How the results depend on the processing

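Under the alternatives run, 8 of the 14 curdlan calls in knockout cells (Trim12a, Trim14, Trim21, Trim25, Trim26, Trim30a, Trim30d and Trim37) and 10 of the 17 in wild-type cells (Trim12a, Trim12c, Trim25, Trim26, Trim28, Trim30a, Trim30d, Trim34a, Trim37 and Trim59) kept their call in every one. No difference that passed changed sign in any of them. The count of members past the threshold with curdlan ran from 9 to 18 in knockout and from 10 to 17 in wild-type cells when arrays or same-numbered pairs were left out; it was 9 without the knockout pair numbered 1, and 10 without the wild-type pair numbered 3. Trim13, Trim39, Trim50, Trim52, Trim55, Trim65 and Trim66, which did not pass, did so on leaving out at least 1 array or pair. With the replicate number as a block the counts were 20 in knockout cells and 18 in wild-type cells. Between untreated genotypes the count of 1 became 2 with the replicate block, and 0 with only the arrays compared or with a second quantile normalisation, and ran from 0 to 3 on leaving out arrays or pairs. The share of all genes that passed under each alternative is not given here, so these shifts cannot be read as particular to the TRIM genes. The cause of these shifts was not tested. Between genotypes with curdlan and for the interaction the count was 0 under every alternative run. A filter on dim genes left 38 of the 58 members and removed Trim72. Signals near the lower quartile, such as those of Trim75 and Trim38, limit what can be seen of those genes.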

Other observations

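The other 3 probe sets with a TRIM symbol among several symbols had small differences with curdlan. The one shared by H2aw and Trim17 differed by 0.22 in knockout and 0.24 in wild-type cells, with overlapping arrays in at least 1 genotype. The one shared by Trim61 and Trim60 differed by 0.08 in each, and the one shared by Trim43b, Trim43c and Trim43a, which averaged 4.41 in knockout cells with curdlan, by 0.05 in knockout and 0.00 in wild-type cells.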
